A study of Mus musculus with 6 samples.

Results

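Genes that repair DNA double-strand breaks and signal DNA damage were followed in whole testis of Phf13 knockout and wild-type mice aged 5 weeks. The set was chosen by name, with earlier results of these data known. It held 39 genes for break sensors, damage kinases, chromatin signalling around a break, end resection, homologous recombination, Fanconi anaemia proteins and end joining. Of these, 36 had at least 1 Affymetrix probe set annotated to that symbol alone, out of 18193 genes so annotated. Rbbp8, Xrcc2 and Dclre1c had no such probe set in the annotation used here and were not analysed. The 36 genes were read by 82 of the 45037 probe sets tested. Each gene is given by its brightest probe set (mean of the 6 arrays) unless another is named. Total RNA was measured on 3 arrays from Phf13 knockout and 3 arrays from wild-type testis. The labels give no strain, do not say which part of Phf13 was removed or in which cells, and do not say that each array came from another animal, so every p-value measures only the spread between these arrays, which may be technical.

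A double-strand break is recognised by the MRN complex (MRE11, RAD50 and NBN), which activates the kinase ATM, while ATR answers to single-stranded DNA. Signalling along the chromatin next to the break, through H2AX, MDC1, RNF8 and RNF168, brings in either 53BP1 and end joining, or BRCA1 with its partner BARD1, end resection and strand exchange. Male germ cells make such breaks on purpose in meiosis, and use many of the same proteins to repair them by recombination and to mark the unpaired sex chromosomes. PHF13, also called SPOC1, reads methylated histone H3 and has been reported at double-strand breaks in human cells. The comparison asks how the transcripts of this machinery stand in testis that lacks Phf13.

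The values are log2 signals, so a difference of 1 is a doubling, and only differences of the same probe set are compared between arrays. Array medians ran from 5.22 to 5.28 and upper quartiles from 7.22 to 7.35. Phf13 stood at 6.71, 6.60 and 6.55 in knockout testis, against 9.55, 9.47 and 9.56 in wild-type testis, a difference of -2.91 (SE 0.09, limma adjusted p = 7.7e-06), so the target went with the label on every array. The tissue label was borne out by its markers: the 14 genes of elongating spermatids had mean levels of 11.32 or more. Numbers in the sample titles, which the labels do not explain, were split at their widest gap (28) into 2 sets of arrays. The first holds knockout 1, wild type 1 and wild type 2, and the second knockout 2, knockout 3 and wild type 3; a gap nearly as wide (24) parts wild type 1 from the rest of its set. The 18S control probe sets stood apart between the sets, and inside each set they were lower in knockout testis. Their mean was 12.03 in knockout 1, against 12.34 and 12.67 in wild type 1 and 2, and 9.87 and 9.69 in knockout 2 and 3, against 10.71 in wild type 3. Differences inside each set are given with the results, and the part of 18S signal or title number in them was not tested.

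The break repair genes were slightly lower in knockout testis as a group, and no single one passed the threshold. The genes were chosen with earlier results of these data known, so the counts describe them and the group was not tested. Of 36 genes, 31 had a difference below 0, 4 had one above 0 and Exo1 was exactly level, with a median of -0.10 and a range from -0.42 to 0.19. Over all 18193 genes, 47.9% lay below 0 and the median was 0.01. At an unadjusted p under 0.05, 10 break repair genes (27.8%) were lower and 0 were higher, beside 8.72% lower and 8.58% higher over all genes. These are bright genes, with only 2 shown probe sets under the median probe set. Among all probe sets above that median, the median difference was -0.03. There 22.3% had an unadjusted p under 0.05 in either direction, against 15.1% of all probe sets. The shares over all genes are therefore not matched for level. With adjustment over all probe sets, 0 of the 36 genes and 0 of their 82 probe sets passed, where 0.0999% of all probe sets (0.137% of all genes by their shown probe set) did, and the smallest limma adjusted p was 0.144, for Bard1. On simulated arrays the same fit recovered 0% of planted changes of 0.25 and 32% of those of 0.5. Changes of the size seen here would mostly be missed, so 0 passing does not show that the genes are unchanged. The 3 knockout arrays lay below the 3 wild-type arrays in 13 of 36 genes (36.1%) and above them in 0, beside 13.5% and 9.92% over all genes. In whole testis, fewer cells of a type and less RNA per cell cannot be told apart.

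The 10 genes with an unadjusted p under 0.05 were Mre11a and Rad50 of the MRN complex, the chromatin mediator Mdc1, the RecQ helicase genes Blm, Wrn and Recql, the recombination genes Bard1, Rad51d and Rad54b, and Fanca.

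**Figure D1:**
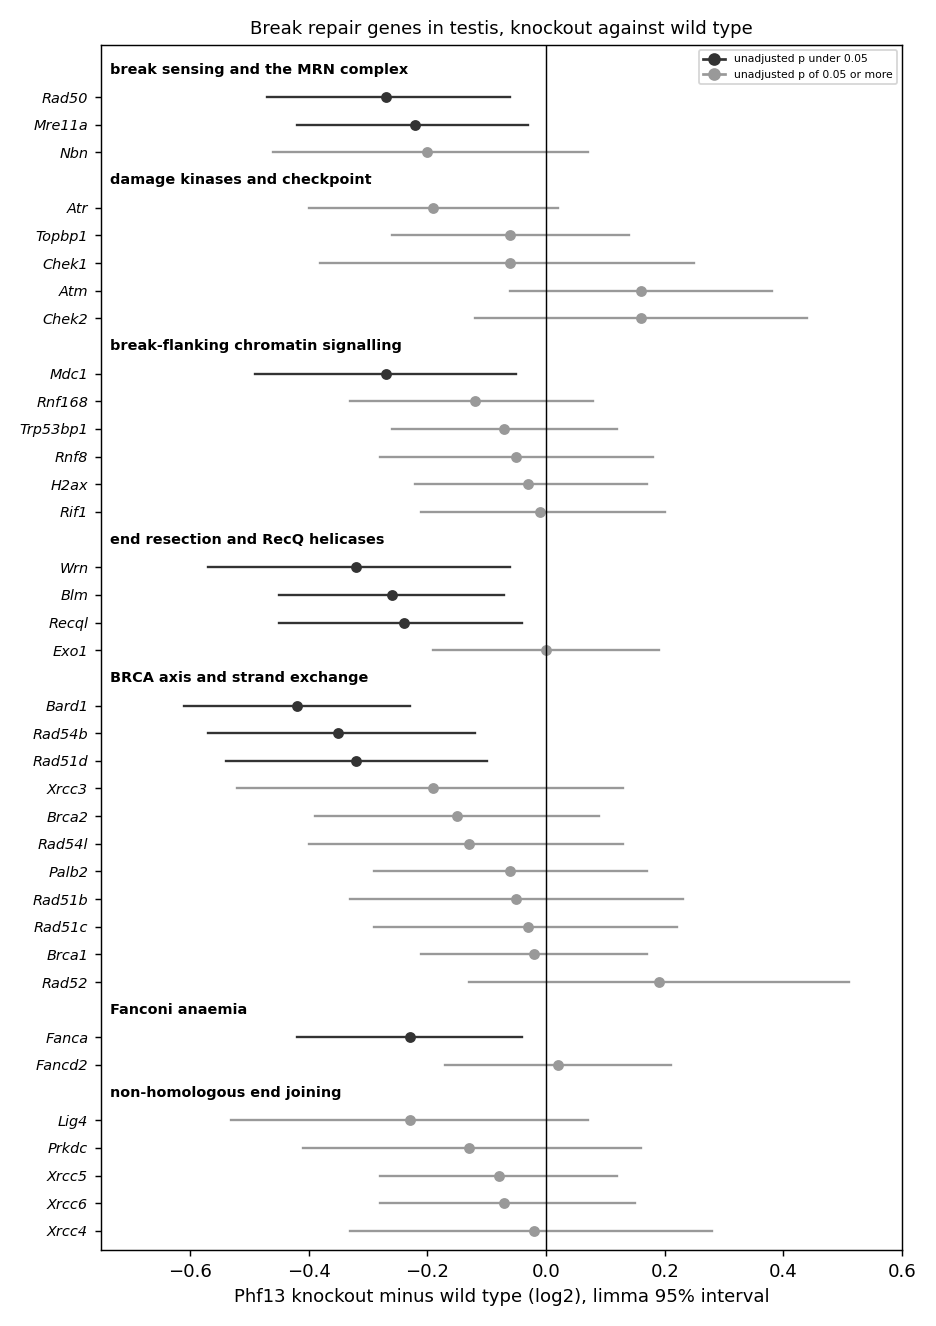
Difference of each of the 36 break repair genes, Phf13 knockout minus wild type, on the log2 scale (x axis) with limma's 95% interval (bars), by role (y axis). Dark symbols have an unadjusted p under 0.05, and all 10 of these lie below 0, from Bard1 at -0.42 to Mre11a at -0.22.

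The DNA before the transcription start is shown for the 4 genes of smallest p whose promoter was in the RefSeq table of GRCm38.p6. The start is that of the promoter window. It lay 169, 150, 75 and 3 bases from the outermost RefSeq start of Bard1, Blm, Fanca and Mdc1. Each run is the 250 bases upstream of the start, 5′ to 3′ on the strand of the gene, in lower case, with CCAAT boxes in capitals on either strand (ATTGG is the same box on the opposite strand). The motifs searched were the CCAAT box, the E2F site (TTTCGCGC or TTTGGCGC), the NRF1 site (GCGC-N-TGCGC, N being any base) and the cAMP response element (TGACGTCA), on both strands.
Bard1, chr1:71102973-71103222, minus strand: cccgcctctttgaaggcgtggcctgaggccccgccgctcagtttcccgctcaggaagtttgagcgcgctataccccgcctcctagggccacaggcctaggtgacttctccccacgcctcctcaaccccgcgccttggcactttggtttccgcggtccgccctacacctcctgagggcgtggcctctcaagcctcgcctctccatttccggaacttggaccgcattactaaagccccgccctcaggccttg
Blm, chr7:80534999-80535248, minus strand: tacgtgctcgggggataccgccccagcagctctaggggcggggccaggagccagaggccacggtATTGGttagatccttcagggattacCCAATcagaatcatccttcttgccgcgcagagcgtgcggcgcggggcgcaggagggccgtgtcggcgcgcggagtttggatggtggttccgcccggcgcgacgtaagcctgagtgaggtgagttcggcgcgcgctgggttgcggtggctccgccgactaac
Fanca, chr8:123318577-123318826, minus strand: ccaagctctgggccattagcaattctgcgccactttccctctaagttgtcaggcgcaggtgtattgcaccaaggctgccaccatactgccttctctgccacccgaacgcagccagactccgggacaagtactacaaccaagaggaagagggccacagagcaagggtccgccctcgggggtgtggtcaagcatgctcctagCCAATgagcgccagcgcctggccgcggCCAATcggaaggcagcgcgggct
Mdc1, chr17:35841248-35841497, plus strand: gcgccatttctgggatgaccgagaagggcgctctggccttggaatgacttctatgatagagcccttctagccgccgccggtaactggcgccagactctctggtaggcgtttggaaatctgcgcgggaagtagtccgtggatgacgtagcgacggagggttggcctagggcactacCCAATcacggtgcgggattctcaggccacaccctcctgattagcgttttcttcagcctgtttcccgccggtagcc

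Blm carried 2 CCAAT boxes, beginning 186 and 161 bases before the start, Fanca 2, at 50 and 23 bases, and Mdc1 1, at 75 bases. Bard1 carried none of the searched letters. RefSeq windows were matched for 26 of the 36 genes, in 31 windows, of which the 250 bases before the start were searched. A CCAAT box stood in 16 of these (51.6%), beside 33.8% of the same 250 bases in all 32851 windows. By gene, 13 of the 26 matched genes had one, among them 5 of the 6 with an unadjusted p under 0.05. Those 6 were picked by their p in these data, and no share by gene was computed over all genes. The E2F site stood in 3.23% of the windows of the 26 matched genes and 0.654% of all, in Topbp1 alone. The NRF1 site stood in 12.9% and 3.74%, in windows of Atm, Lig4 and Palb2, and the cAMP response element in 6.45% and 1.55%, in Brca2 and Rad51c. These counts describe letters in a window and were not tested.

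The MRN complex holds and tethers broken ends. Rad50 (probe set 1422630_at), its ATPase subunit, stood at 7.17, 7.37 and 7.31 in knockout testis, against 7.53, 7.57 and 7.55 in wild-type testis. All knockout arrays lay below all wild-type arrays, with a difference of -0.27 (SE 0.09; unadjusted p = 0.0166, adjusted p = 0.253). Mre11a (1416748_a_at), the nuclease, stood at 8.38, 8.51 and 8.37 in knockout testis, against 8.67, 8.60 and 8.66 in wild-type testis. The groups again did not overlap, and the difference was -0.22 (SE 0.09; unadjusted p = 0.031, adjusted p = 0.291). Nbn, the subunit that recruits ATM, averaged 8.12 ± 0.18 in knockout testis and 8.31 ± 0.11 in wild-type testis (SD, n = 3 each). Its groups overlapped, and the difference of -0.20 had a 95% interval from -0.46 to 0.07. Inside the 2 sets of arrays Rad50 differed by -0.38 and -0.21, Mre11a by -0.25 and -0.22, and Nbn by -0.34 and -0.21.

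The kinases and checkpoint genes went in both directions. Atr (1427197_at), the kinase that answers to single-stranded DNA and acts on unsynapsed chromosomes in meiosis, stood at 10.64, 10.60 and 10.59 in knockout testis, against 10.76, 10.93 and 10.71 in wild-type testis. The knockout arrays lay below the wild-type arrays, with a difference of -0.19 (SE 0.09; unadjusted p = 0.0712, adjusted p = 0.373). Atm, the kinase of double-strand breaks, averaged 6.81 ± 0.07 in knockout testis and 6.64 ± 0.12 in wild-type testis (SD, n = 3 each). Its difference was 0.16, with a 95% interval from -0.06 to 0.38 and overlapping groups, and its other probe set differed by -0.04. Chek2, the checkpoint kinase downstream of ATM, also differed by 0.16, with an interval from -0.12 to 0.44. Topbp1, the activator of ATR, and Chek1, the checkpoint kinase downstream of ATR, each differed by -0.06. Their intervals ran from -0.26 to 0.14 and from -0.38 to 0.25. Inside the 2 sets of arrays Atm differed by 0.15 and 0.24 and Atr by -0.20 and -0.12.

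Of the 6 genes that mark and read the chromatin next to a break, Mdc1 stood out. MDC1 binds phosphorylated H2AX and spreads the signal, along the sex chromosomes of spermatocytes as well. Mdc1 (1434837_at) stood at 9.12, 9.11 and 8.97 in knockout testis, against 9.38, 9.42 and 9.21 in wild-type testis. The groups did not overlap, and the difference was -0.27 (SE 0.10; unadjusted p = 0.0224, adjusted p = 0.266). H2ax, the histone variant that carries the mark, averaged 9.73 ± 0.04 in knockout testis and 9.76 ± 0.07 in wild-type testis (SD, n = 3 each). Its difference of -0.03 had a 95% interval from -0.22 to 0.17. The ubiquitin ligase genes Rnf8 and Rnf168 differed by -0.05 and -0.12, and Trp53bp1, which encodes the end-joining adaptor 53BP1, by -0.07. Rif1, an effector of 53BP1, differed by -0.01, with a sign that turned under quantile normalization (0.02). The knockout arrays of Rnf168 and Trp53bp1 lay below the wild-type arrays, though by little: Trp53bp1 stood at 9.24, 9.23 and 9.28 in knockout testis, against 9.37, 9.30 and 9.29 in wild-type testis.

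The 3 RecQ helicase genes of the set had non-overlapping groups in their brightest probe set, but not in all their probe sets. Recql4 and Recql5, RecQ helicase genes outside the set, differed by 0.14 and -0.13, with overlapping groups. BLM dissolves recombination intermediates and takes part in end resection. Blm (1448953_at) stood at 7.58, 7.56 and 7.61 in knockout testis, against 7.80, 7.91 and 7.81 in wild-type testis. The knockout arrays lay close together and below all wild-type arrays, with a difference of -0.26 (SE 0.08; unadjusted p = 0.0142, adjusted p = 0.245). Wrn (1450163_a_at), whose human counterpart is lost in Werner syndrome, stood at 7.02, 7.36 and 7.06 in knockout testis, against 7.46, 7.52 and 7.41 in wild-type testis. Knockout 2 came close to the wild-type range, and the difference was -0.32 (SE 0.11; unadjusted p = 0.02, adjusted p = 0.261). The other Wrn probe sets each differed by -0.09 with overlapping groups, and the mean over its probe sets was -0.17. Recql (1418339_at), which encodes the RecQ helicase RECQ1, stood at 8.04, 8.20 and 8.13 in knockout testis, against 8.29, 8.38 and 8.43 in wild-type testis. Its difference was -0.24 (SE 0.09; unadjusted p = 0.0256, adjusted p = 0.276). Exo1, the exonuclease of long-range resection, averaged 6.48 in both genotypes, with an interval of the difference from -0.19 to 0.19.

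**Figure D2:**
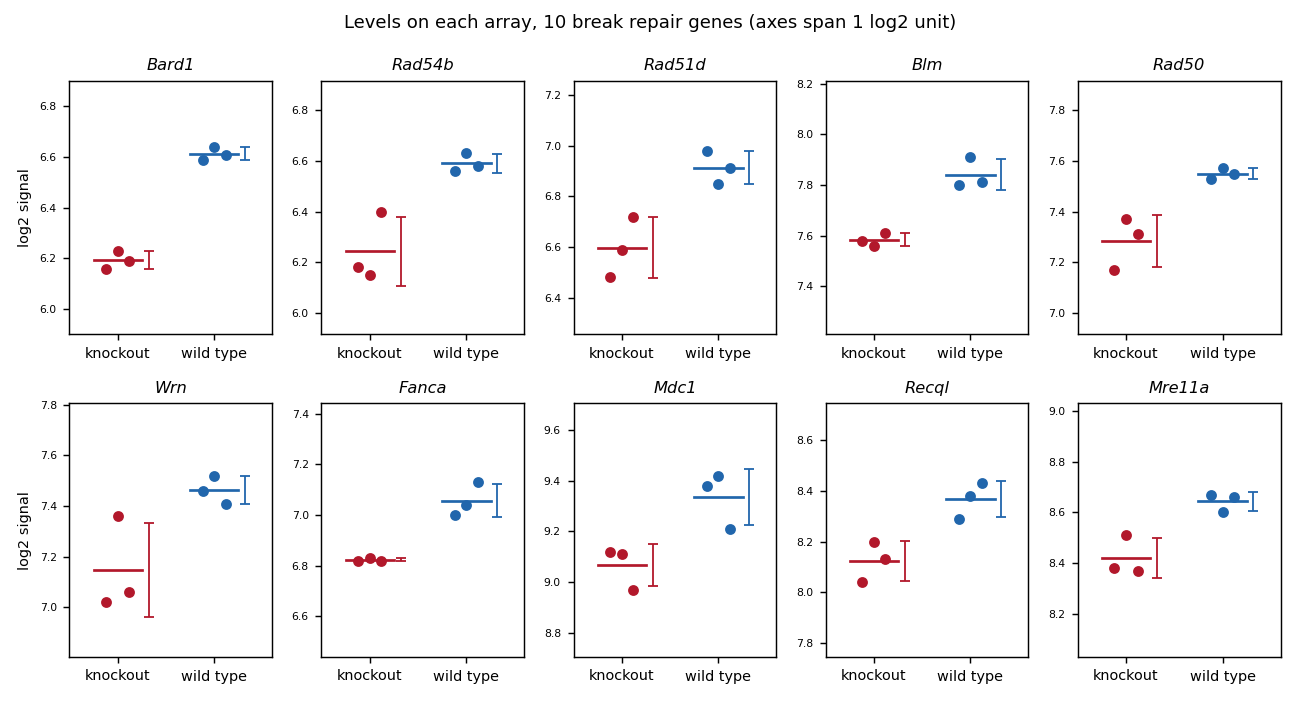
Log2 signal (y axis, each panel spanning 1 log2 unit) on the 3 Phf13 knockout arrays (red, left) and the 3 wild-type arrays (blue, right) for the 10 break repair genes with an unadjusted p under 0.05. Points are arrays, horizontal lines are means and bars to the right are means ± SD; in all 10 genes every knockout point lies below every wild-type point.

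Bard1 had the largest difference of all 36 genes, while its partner Brca1 was nearly level. BARD1 forms the ubiquitin ligase with BRCA1 and is needed for BRCA1 to be stable. Bard1 (1420594_at) stood at 6.16, 6.23 and 6.19 in knockout testis, against 6.59, 6.64 and 6.61 in wild-type testis. The groups did not overlap, and the difference was -0.42 (SE 0.08; 95% interval -0.61 to -0.23), a change of -25.3% on the linear scale (unadjusted p = 0.000713, adjusted p = 0.144). Brca1 (1424629_at) averaged 7.47 ± 0.05 in knockout testis and 7.49 ± 0.05 in wild-type testis (SD, n = 3 each). Its difference of -0.02 had a 95% interval from -0.21 to 0.17. A dimmer probe set of Brca1 (1427698_at) averaged 4.38 ± 0.14 in knockout testis and 4.70 ± 0.16 in wild-type testis (SD, n = 3 each), a difference of -0.32 (unadjusted p = 0.023, adjusted p = 0.267), so its probe sets disagree. Palb2 and Brca2, which act with BRCA1 in homologous recombination, differed by -0.06 and -0.15, with overlapping groups.

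Of Rad51b, Rad51c, Rad51d and Xrcc3, which assist homologous recombination, Rad51d alone had groups that did not overlap. Rad51d (1425944_a_at) stood at 6.48, 6.59 and 6.72 in knockout testis, against 6.98, 6.85 and 6.91 in wild-type testis. The difference was -0.32 (SE 0.10; unadjusted p = 0.0102, adjusted p = 0.229). A further Rad51d probe set (1422770_at), at 5.69, 5.81 and 5.79 in knockout testis, against 5.88, 6.10 and 6.36 in wild-type testis, differed by -0.35 and did not overlap either. In 1442803_at and 1443891_at Rad51d differed by -0.15 and -0.03, with overlapping groups. Rad51b, Rad51c and Xrcc3 differed by -0.05, -0.03 and -0.19, each with overlapping groups. Rad54b (1434734_at), a DNA translocase of homologous recombination, stood at 6.18, 6.15 and 6.40 in knockout testis, against 6.56, 6.63 and 6.58 in wild-type testis. Every knockout array lay below the wild-type arrays, with a difference of -0.35 (SE 0.10; unadjusted p = 0.00672, adjusted p = 0.214). Its relative Rad54l differed by -0.13 with overlapping groups, and by -0.33 in a dimmer probe set (1423123_at; unadjusted p = 0.00996, adjusted p = 0.228). In 1423124_x_at and 1453926_at Rad54l differed by -0.29 and -0.02, with overlapping groups. Rad52, an annealing protein, had the highest difference of the 36 genes, at 0.19, with an interval from -0.13 to 0.51. Rad54b, Rad54l and Nbn lie on chromosome 4, as does Phf13, and 0 of the 36 genes lie on the X or Y chromosome. Between Rad54b and Phf13 lie 2589 genes of any kind.

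FANCA belongs to the core complex of the Fanconi anaemia pathway, which acts on DNA crosslinks and on sex chromatin in meiosis. Fanca (1418856_a_at) stood at 6.82, 6.83 and 6.82 in knockout testis, against 7.00, 7.04 and 7.13 in wild-type testis. The knockout arrays were almost equal and lay below all wild-type arrays, with a difference of -0.23 (SE 0.08; unadjusted p = 0.0222, adjusted p = 0.266). The other Fanca probe set (1452513_a_at) differed by -0.28 and did not overlap either (unadjusted p = 0.0196, adjusted p = 0.26). Fancd2, the protein that the core complex ubiquitinates, averaged 8.33 ± 0.06 in knockout testis and 8.31 ± 0.01 in wild-type testis (SD, n = 3 each), a difference of 0.02 with an interval from -0.17 to 0.21.

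Among the end-joining genes of the set no gene stood apart. Of 5 measured, 5 were below 0, 0 had an unadjusted p under 0.05 and 0 had groups that did not overlap. Over all genes 47.9% were below 0, 8.72% were lower at that p and 13.5% had all knockout arrays below. With such shares, a count of 0 among 5 genes does not set them apart from all genes. Lig4 (1439487_at), the ligase that seals the ends, stood at 7.85, 8.20 and 7.98 in knockout testis, against 8.01, 8.34 and 8.37 in wild-type testis. The groups overlapped, and the difference was -0.23 (SE 0.13; unadjusted p = 0.119, adjusted p = 0.449). The Ku subunit genes Xrcc5 and Xrcc6 differed by -0.08 and -0.07, Prkdc, the DNA-dependent kinase, by -0.13, and Xrcc4, the partner of LIG4, by -0.02. Nhej1, an end-joining gene outside the set, had groups that did not overlap and is given with the other pathway genes. No test compared end joining with recombination.

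The differences inside the 2 sets of arrays show their size only for the 13 genes whose groups did not overlap, since their sign was then fixed. Bard1 differed by -0.46 in the first set and -0.40 in the second, Rad54b by -0.41 and -0.30, Wrn by -0.47 and -0.20, and Fanca by -0.20 and -0.30. Of all 36 genes, 32 were below 0 in the first set, with a median of -0.20, and 26 in the second, with a median of -0.09. With knockout 1 set against wild type 2 alone, a comparison added after the data were seen, 31 were below 0, with a median of -0.16. In both sets at once 24 genes were below 0 (66.7%), beside 34.8% of all genes, and 13 of these 24 are the genes with groups that did not overlap. Atm and Rad52 were above 0 in both.

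**Figure D3:**
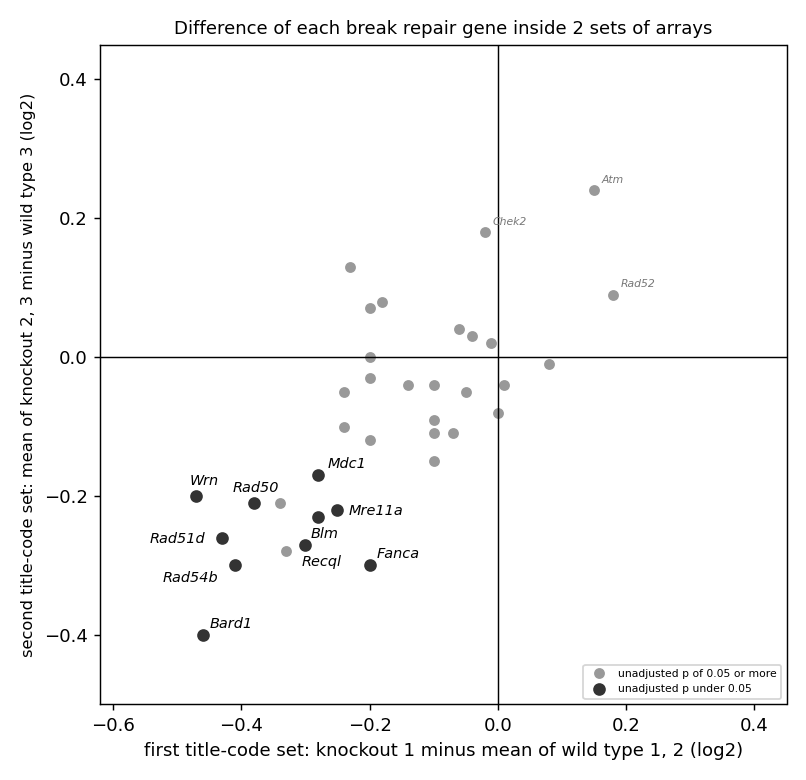
Difference of each of the 36 break repair genes on the log2 scale inside the first set of arrays (x axis: knockout 1 minus the mean of wild type 1 and 2) and inside the second (y axis: the mean of knockout 2 and 3 minus wild type 3). Dark points are the 10 genes with an unadjusted p under 0.05, whose sign is fixed because their groups did not overlap; Bard1 lies at -0.46 and -0.40, and Atm and Rad52 lie above 0 on both axes.

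Other probe sets of the same genes were mostly below 0 as well. The 23 genes with several probe sets had 46 others, of which 35 were below 0. At an unadjusted p under 0.05, 7 of the 46 were lower and 0 higher, where 8.31% of all probe sets were lower and 6.81% higher. The means of 26 of the 46 lay under the median probe set of the array, and no background level was used. Recql disagreed with itself: its probe sets differed by -0.24, -0.16, 0.01, 0.10 and 0.13. A dim Rad50 probe set (1425939_at), at 2.90 ± 0.04 in knockout testis and 2.87 ± 0.13 in wild-type testis (SD, n = 3 each), differed by 0.03.

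A few of the 46 other probe sets were high in 2 wild-type arrays only. The Trp53bp1 and Rif1 probe sets given here are among the 7 that were lower at an unadjusted p under 0.05. That count therefore rests in part on wild type 1 and 2. A Trp53bp1 probe set (1442316_x_at, a type in which probes can bind other transcripts) stood at 3.56, 3.66 and 3.47 in knockout testis, against 4.67, 5.09 and 3.57 in wild-type testis. Another (1457812_at) stood at 3.53, 3.74 and 3.63 in knockout testis, against 4.52, 4.71 and 3.81 in wild-type testis. Wild type 1 and 2, of the first set of arrays, were high, while wild type 3 was at or near the knockout level. The same arrays were the high ones in an Atr probe set (1445091_at), with 6.29, 6.29 and 6.24 in knockout testis, against 7.06, 7.00 and 6.15 in wild-type testis. A Rif1 probe set (1437179_at) read 9.30, 9.28 and 9.07 in knockout testis, against 9.78, 9.85 and 9.22 in wild-type testis. Inside the second set of arrays these 4 probe sets differed by 0.00, -0.12, 0.12 and -0.04, against -1.32, -1.08, -0.74 and -0.51 inside the first.

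**Figure D4:**
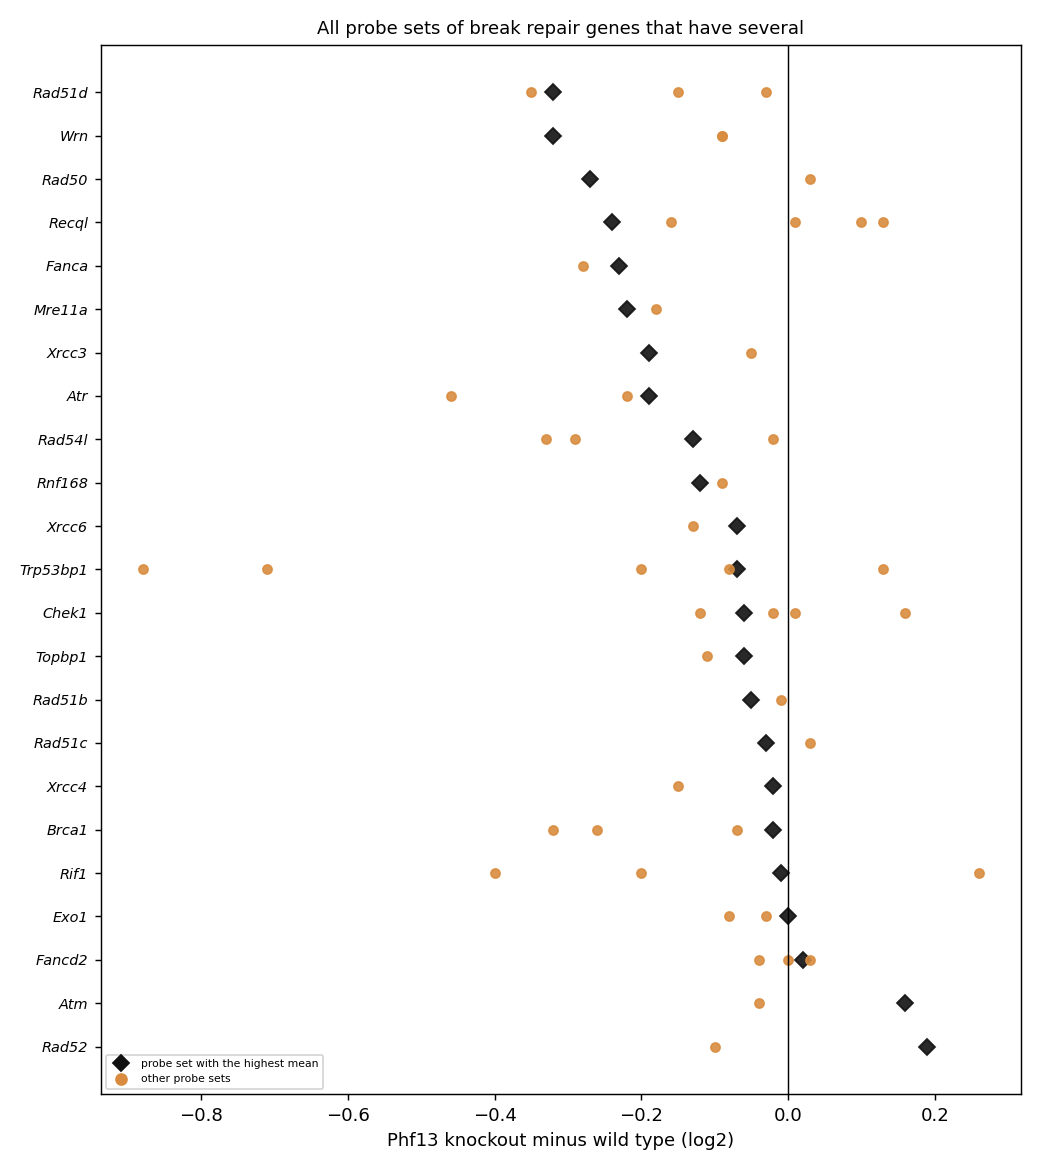
Difference, Phf13 knockout minus wild type, on the log2 scale (x axis) for every probe set of the 23 break repair genes with more than 1 (y axis). Black diamonds are the probe sets with the highest mean and orange points the others; most lie below 0, and the lowest are the Trp53bp1 probe sets at -0.88 and -0.71.

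Other genes of the same pathways gave the following. Of 66 such genes, 45 were below 0 and 18 above, with a median of -0.08. At an unadjusted p under 0.05, 9 were lower (13.6%, beside 8.72% of all genes) and 1 was higher, Fancf at 0.22, a gene singled out after its value was seen. The groups did not overlap in 14 lower genes (21.2%, beside 13.5%), and 0 passed over all probe sets. Nhej1, which encodes the end-joining factor XLF, stood at 6.39, 6.68 and 6.62 in knockout testis, against 6.98, 6.89 and 7.06 in wild-type testis (difference -0.41, unadjusted p = 0.00402, adjusted p = 0.199). Top3a, the topoisomerase that works with BLM, stood at 6.68, 6.85 and 6.70 in knockout testis, against 7.05, 7.06 and 7.15 in wild-type testis (difference -0.34, unadjusted p = 0.00469, adjusted p = 0.207). Neither gene had overlapping groups. Fancm, the translocase of the Fanconi pathway, differed by -0.46, Fancg by -0.36, Mcm9 by -0.26 and Timeless by -0.26. Zswim7, which acts in homologous recombination, differed by -0.26, and Rad18, a ubiquitin ligase, by -0.21.

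Cell type marker lists stood beside these genes as follows. Of the Sertoli cell markers, 15 of 16 measured were above 0 with a median of 0.39. Of the 16, 10 were higher at an unadjusted p under 0.05, beside 8.58% of all genes, and 0 passed the adjusted threshold. In 11 of them the knockout arrays lay above the wild-type arrays, beside 9.92% of all genes. The sum of the Sertoli log2 levels ran from 141.7 to 143.7 in knockout testis, against 136.9 to 137.6 in wild-type testis. Markers of pachytene and later spermatocytes, the cells in which many of these repair genes act, were below 0 in 15 of 18, with a median of -0.07. Their sum ran from 189.3 to 190.4 in knockout testis, against 190.5 to 192.4 in wild-type testis. Markers of early meiotic prophase had a median of 0.00, 7 of 15 being below 0 and 7 above, with sums from 138.9 to 141.0 in knockout testis, against 140.0 to 141.6 in wild-type testis. Markers of mitotic division were below 0 in 9 of 13, with a median of -0.11. Their sums ran from 112.6 to 114.1 in knockout testis, against 114.2 to 114.6 in wild-type testis. At an unadjusted p under 0.05, 22.2% of the pachytene list, 20.0% of the early meiotic list and 23.1% of the mitotic list were lower. Over all genes the share was 8.72%, and 1, 0 and 0 markers of these lists were higher. The knockout arrays lay below the wild-type arrays in 16.7%, 26.7% and 46.2% of them, beside 13.5% of all genes. In these lists 0 markers passed the adjusted threshold. Leydig, myoid and leukocyte markers had medians of 0.24, 0.30 and 0.23, but of -0.03, -0.08 and 0.00 inside the first set of arrays. Adipose markers, 5 of 5 above 0, had a median of 0.34, and of 0.27 inside each set. Their sum ran from 28.7 to 29.9 in knockout testis, against 24.9 to 27.6 in wild-type testis, and the largest difference among them was 2.21, for Fabp4, a fatty acid carrier of fat cells, named after its value was seen (unadjusted p = 0.00267, adjusted p = 0.188). No marker of the Sertoli, meiotic or mitotic lists was near the bottom of the scale, the lowest mean being 4.86. The mean of the 36 break repair genes was 7.55, 7.62 and 7.62 in knockout testis, against 7.69, 7.74 and 7.71 in wild-type testis. The part of cell composition in these differences was not tested.

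**Figure D5:**
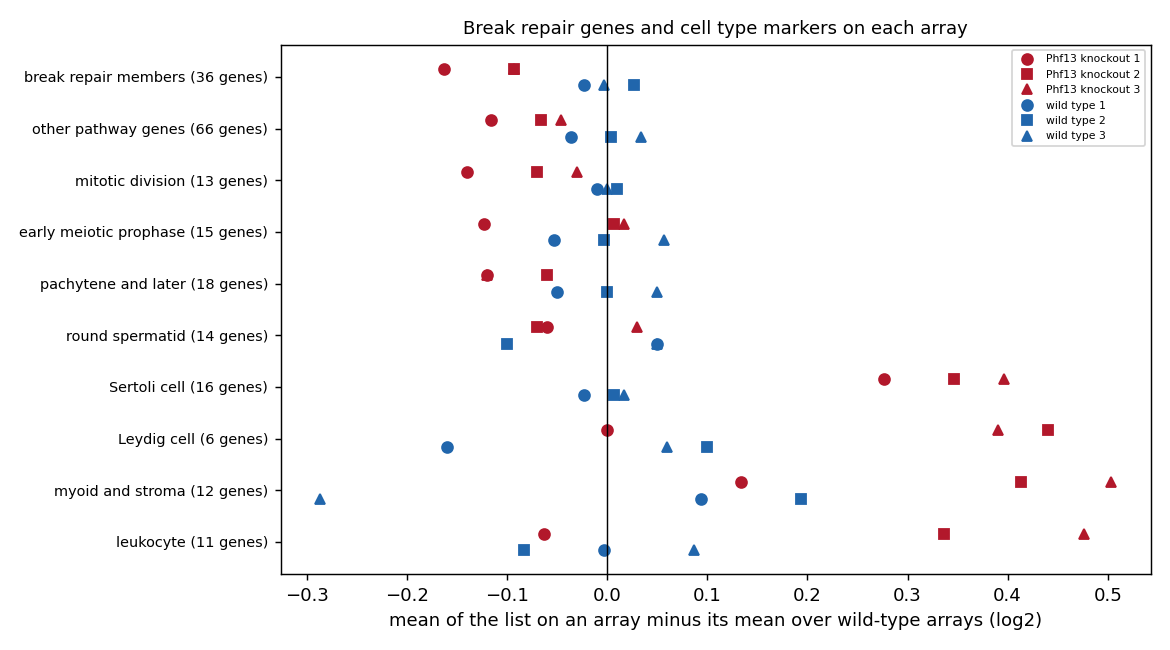
Mean of each gene list on each array, minus the mean of that list over the wild-type arrays, on the log2 scale (x axis), for break repair genes, other pathway genes and marker lists (y axis, with the number of genes measured). Red symbols are Phf13 knockout arrays and blue symbols wild-type arrays, and shapes give the replicate number; equal values overlap, as for knockout 2 and 3 in the break repair row, where all knockout symbols lie left of the wild-type ones, while in the Sertoli row they lie right.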

How the data were processed

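The data are 6 Affymetrix arrays of biotin-labelled testis RNA. The log2 signals are as deposited; the submitters' processing notes name Affymetrix Expression Console 1.4.1. The sources used here do not give the summarization, normalization or build. That values are log2 was judged from their range. Of 45101 probe sets, 64 controls were left out; 34945 of the rest carried 1 symbol in the platform annotation, 932 several and 9160 none, and only the first kind named a gene. Promoters and chromosomes are RefSeq's (GRCm38.p6).

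Genotype was fitted to the log2 values with limma 3.58.1 in R 4.3.3 (lmFit, eBayes, two-sided, Benjamini-Hochberg over 45037 probe sets, threshold 0.05), after a test on simulated data. No array repeated another (smallest root mean square difference 0.17). The members and lists were chosen with earlier results of these data known. Named were Phf13 and the measured members. Values per array were given for members with an unadjusted p under 0.05 and for the smallest p in each role. Of the other pathway genes, the 8 of smallest p were named, with Recql4 and Recql5 as further RecQ helicase genes. Alternatives were a replicate block, the title number sets as a block or apart, brighter probe sets alone, quantile normalization, median centring, a trended robust fit, array weights, an unmoderated statistic, gene means over probe sets, and each array left out.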

Additional observations from a re-analysis of the deposited data

How the results depend on the processing

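The median of the break repair genes stayed below 0 under all 17 alternatives, from -0.07 with quantile normalization to -0.20 inside the first title number set, and that of the other pathway genes from -0.05 to -0.10. The replicate block, the trended robust fit and the unmoderated statistic could not move either median, since they leave every difference as it was. With knockout 1 against wild type 2 alone, added after the data were seen, the medians were -0.16 and -0.12. Same-numbered arrays deviated from their group means with correlations of 0.258, 0.0657 and 0.118, so the numbers were not taken as pairs. With the replicate number as a block, the count of 31 break repair genes below 0 was fixed, as no difference changes. Of these, 11 were lower at an unadjusted p under 0.05, and 22 probe sets were called higher and 6 lower over the array. Over the array, 25 higher and 20 lower became 66 and 44 with a trended robust fit, 1654 and 1532 with array weights, and 0 and 1 with the unmoderated statistic (where 11.8% of probe sets had an unadjusted p under 0.05); 42 were lower among probe sets above the median level. Leaving out 1 array gave 8 to 178 higher and 4 to 998 lower, the most without wild type 3 (140 higher without knockout 1). The number of break repair genes lower at an unadjusted p under 0.05 was 10 and ran from 5 to 9 with 1 array left out, with 5 without knockout 3 and 6 without wild type 2. For the other pathway genes it was 9, ran from 4 to 8, with 4 without wild type 1 or wild type 2, and was 4 with quantile normalization. Phf13 differed by -2.80 and -2.98 inside the sets and by -2.87 to -2.95 with 1 array left out. Of the break repair genes, Bard1 (-0.41, limma adjusted p = 0.0245) and Rad54b (-0.38, adjusted p = 0.0429) passed with array weights only, as did Fancm (-0.58) and Fancg (-0.52) of the other genes. Such calls were common under that setting, with 1532 of 45037 probe sets called lower and 26.3% at an unadjusted p under 0.05.

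Of 597 values of single break repair genes under an alternative, 28 turned sign, in 12 genes. The 597 include those under the settings that leave every difference as it was. None of these could turn. None of the 12 genes was among the 10 with an unadjusted p under 0.05, whose groups did not overlap. For those 10 the sign also could not turn inside a set, with array weights or with 1 array left out. With quantile normalization H2ax (0.01), Rif1 (0.02), Brca1 (0.02), Rad51c (0.02) and Xrcc4 (0.03) turned, and with array weights Chek1 (0.03), Rnf8 (0.02) and Xrcc4 (0.05). Inside the first set Chek2 (-0.02) and H2ax (0.01) turned, and inside the second Rif1 (0.03), Brca1 (0.04), Rad51c (0.13), Fancd2 (-0.01), Xrcc6 (0.07) and Prkdc (0.08). With 1 array left out, Chek1 ran from -0.15 to 0.07, H2ax from -0.06 to 0.01, Rad51b from -0.15 to 0.03 and Xrcc4 from -0.13 to 0.09. Chek1 reached 0.07 without knockout 1 and 0.02 without wild type 3, Rad51b 0.01 and 0.03 and Xrcc4 0.09 and 0.04 without the same arrays. Without knockout 1, Rad51c reached 0.04 and Fancd2 -0.01; without wild type 2, Rad51c reached 0.04, Rif1 0.05 and Xrcc4 0.02; and without wild type 1, H2ax reached 0.01. With the mean over a gene's probe sets, Rad50 moved to -0.12, Wrn to -0.17, Recql to -0.03, Rad51d to -0.21, Brca1 to -0.17, Trp53bp1 to -0.30 and Atr to -0.29. The cause was not tested. The number of arrays limits the precision, and 26 of the 46 further probe sets were dimmer than the median probe set.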
